A study of Mus musculus with 6 samples.

Results

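Mitochondrial carriers of the SLC25 family were examined in RNA from mouse lung group 2 innate lymphoid cells (ILC2s), tissue lymphocytes that answer the alarmin IL-33 with type 2 cytokines. Members were the genes of the deposited table named Slc25a and a number, leaving out Slc25a1, Slc25a11 and Slc25a20, which gave 37 of 18057 genes. The rule uses gene names only, though it was set with earlier results of these data known. Both groups came from mice that had received 1 µg of IL-33 in each of 3 i.n. injections. After sorting, cells of both groups were cultured for 24 h in 10 ng/mL of IL-2 and of IL-7. The WT group carried Il7rcre per its genotype label, and the Piezo1 KO group, written Piezo1_KO, carried Il7rcrePiezo1flx, so both groups share the Cre. Il7r is expressed in many lymphoid cells, and a Cre driven by it can act in those cells too. No strain or age is stated in the labels. Each group had 3 libraries of 13059046 to 33459904 estimated counts. Separate animals are not stated for the replicates, and the p-values then reflect only the spread of these libraries, which may be technical. Values for single libraries are given in the order of replicates 1, 2 and 3.

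SLC25 proteins sit mostly in the inner mitochondrial membrane and exchange metabolites, nucleotides, cofactors and ions between the cytosol and the matrix. Each carries a limited set of substrates, so the set of carriers a cell makes shapes which mitochondrial pathways it can feed. The adenine nucleotide carriers bring ADP in and send ATP out, the phosphate carrier supplies ATP synthase, and the aspartate-glutamate carriers serve the malate-aspartate shuttle that moves NADH equivalents into the matrix. Other members supply iron for iron-sulfur clusters and heme, or glutathione, coenzyme A and NAD. Piezo1 is a mechanically gated cation channel of the plasma membrane. The comparison asks what the loss of Piezo1 changes in activated lung ILC2s.

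Piezo1 itself, as a check of the labels, was at 247, 278 and 160.0 CPM in WT and 150.0, 109 and 122 CPM in Piezo1_KO (CPM is a gene's share of a library's counts after TMM scaling). The groups did not overlap, and the log2 fold change of −0.85 ± 0.21 (SE) did not pass an adjusted p of 0.05 (adjusted p = 0.112, edgeR). Which exons are floxed is not stated, so gene counts check the labels only in part. All 15 ILC2 markers listed were in the table, with a summed level of 12157 to 13075 CPM in WT and 13970 to 14932 CPM in Piezo1_KO. Among them Il17rb rose and Il7r and Icos fell (edgeR adjusted p = 0.0136, 0.00722 and 0.0168). The most abundant were Il5 (means of 4038 CPM in WT and 5159 in Piezo1_KO) and Il2ra (3469 and 4318), so the sum mostly follows them. Log2 fold changes were positive for 9 of the 15. Gata3 (986 and 737 CPM, adjusted p = 0.0612, edgeR), Rora and Hlf were lower without overlap and did not pass. The groups did not overlap for 11 of the 15, against 20.5% of all tested genes. For other cells, WT and Piezo1_KO ranges of the summed level were 13.96 to 22.7 and 7.48 to 12.2 CPM for 8 macrophage and granulocyte markers (Cma1 fell), 34.4 to 40.3 and 80.2 to 103.7 CPM for 3 B cell markers (Ighm rose), 166 to 208 and 159.8 to 192 CPM for 7 T cell markers and 10.2 to 15.3 and 13.9 to 18.5 CPM for 2 lung structural markers. Of the 6 T cell markers tested, Lck rose and 4 had negative values that did not pass, Cd3e at 2.36 to 3.14 CPM in WT and 0.93 to 1.62 CPM in Piezo1_KO and Trbc2 at 95.1 to 123 and 76.0 to 94.8 CPM, both without overlap, and Cd3g and Trbc1 with overlap. The defining genes Ms4a1, Cd4, Cd8a, Siglecf and Sftpc were not analysed here. The part of these cells in the carriers' values was not tested. In bulk RNA, fewer cells of a type and less RNA per cell cannot be told apart. Within WT, replicate 2 was the highest library for 22 of the 34 tested carriers.

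No carrier transcript passed the test for a difference between the genotypes. Of the 37 members, 34 had enough counts to be tested, and 0 passed an adjusted p of 0.05 (edgeR quasi-likelihood test, Benjamini-Hochberg adjustment over all 14149 genes tested). Of all tested genes 1.51% passed, 1.00% higher and 0.509% lower in Piezo1_KO. At an unadjusted p under 0.05 there were 2 members higher and 5 lower in Piezo1_KO, or 20.6% of the members. Of all tested genes 13.2% lay under it, 6.30% higher and 6.91% lower. DESeq2 called 2 members, Slc25a10 lower and Slc25a24 higher, and 4.22% of all genes with an adjusted p in that tool, 2.50% higher and 1.71% lower. Limma-voom with quality weights called 0 members and 3.10% of all tested genes, 1.89% higher and 1.22% lower. The median log2 fold change was 0.01 over the tested members and 0.02 over all tested genes, with 18 members positive and 16 negative. The 95% interval of the fold change lay within 1.5-fold in either direction for 24 of 34 members (70.6%) and for 47.8% of all tested genes. In counts simulated on these libraries, this test recovered 12% of 1.5-fold and 58% of 2-fold changes, placed in genes drawn from all levels. The lack of a call therefore does not by itself show that a difference of these sizes is absent. For each member taken singly, the 95% interval gives the sizes that remain, without adjustment for the number of members.

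**Figure D1:**
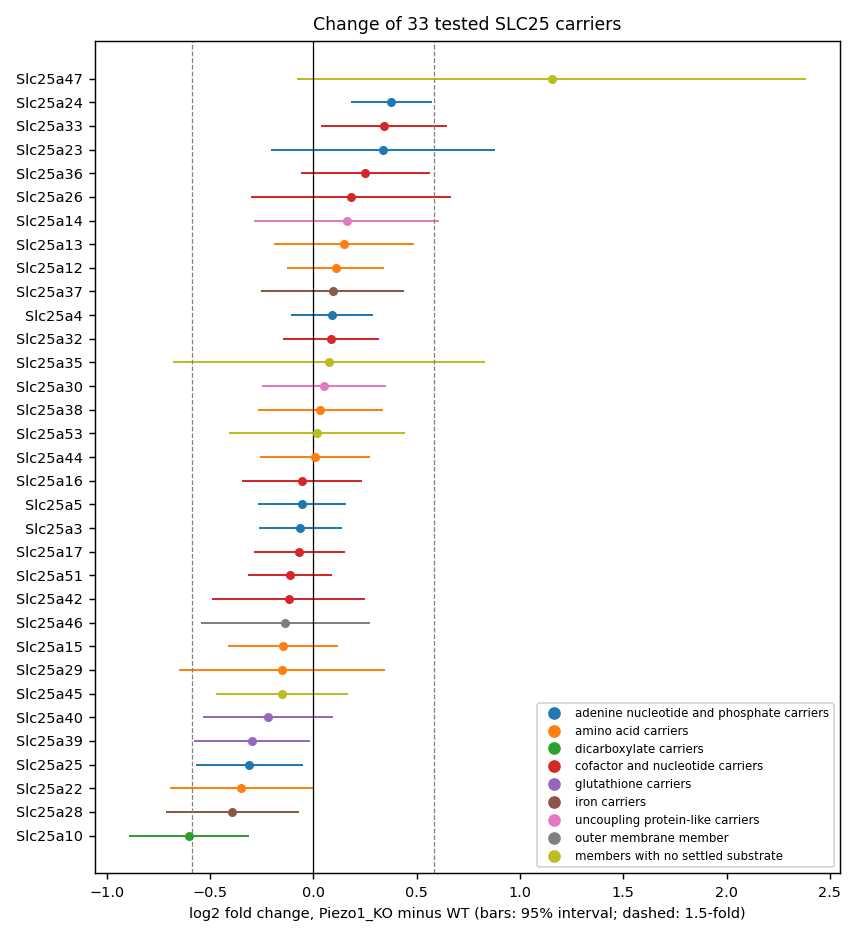
Log2 fold change (Piezo1_KO minus WT, x axis) of 33 tested carriers, with 95% intervals as bars, coloured by role, and dashed lines at 1.5-fold. Of those plotted, only Slc25a10 at −0.60 and Slc25a47 at 1.15 lay beyond 1.5-fold, and Slc25a47 was measured at under 1 CPM.

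Slc25a10 and Slc25a24 had the smallest p-values in each direction and were the calls of DESeq2, so their start regions are shown. Each window runs from 250 bases before to 50 bases after the RefSeq transcript start in GRCm38.p6, 5′ to 3′ on the plus strand, and capitals mark each GC box (GGGCGG on either strand, a binding sequence of Sp1-type factors).
Slc25a10 (chr11:120491587-120491886): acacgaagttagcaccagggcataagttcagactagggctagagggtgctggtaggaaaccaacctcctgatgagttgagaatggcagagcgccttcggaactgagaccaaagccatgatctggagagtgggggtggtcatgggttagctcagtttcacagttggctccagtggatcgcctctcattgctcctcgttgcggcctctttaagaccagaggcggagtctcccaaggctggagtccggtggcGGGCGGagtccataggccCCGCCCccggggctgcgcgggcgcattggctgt
Slc25a24 (chr3:109122899-109123198): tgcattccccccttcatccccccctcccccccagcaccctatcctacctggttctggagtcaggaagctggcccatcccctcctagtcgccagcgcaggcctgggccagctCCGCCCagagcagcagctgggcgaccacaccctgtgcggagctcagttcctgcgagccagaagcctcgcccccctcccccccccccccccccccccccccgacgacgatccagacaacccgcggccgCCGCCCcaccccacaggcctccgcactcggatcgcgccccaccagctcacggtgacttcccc
Each window held 2 GC boxes, 1 per strand in Slc25a10 and both as the reverse complement in Slc25a24. RefSeq windows were matched for 28 of the 37 members, in 37 windows because some genes have several starts. A GC box was present in 33 of these windows (89.2%) and in 25 of the 28 genes, against 46.2% of the 21262 windows of protein-coding genes. The member windows had a median GC content of 60% and the protein-coding windows 56.3%, which bears on any GC-rich motif, and its part in the count was not tested. The TATA box TATAAA was in 0 of the member windows against 12.6% of the protein-coding windows. CCAAT was in 48.6% of member windows against 38.2%, and the E-box CACGTG in 18.9% against 7.84%, with the genes Slc25a13, Slc25a14, Slc25a15, Slc25a31, Slc25a33 and Slc25a36. GCGCATGC, part of the NRF-1 motif, was in 1 window, of Slc25a31, or 2.70% against 3.51%, and the ETS sequence CCGGAAGT in 0 against 5.15%. All were searched on both strands. These are matches of letters in short windows and say nothing about which factors bind.

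Levels of different genes were compared per kilobase of annotated exon. Slc25a5, which encodes the adenine nucleotide carrier ANT2 of dividing cells, was the highest at 553 ± 30.4 CPM per kb (SD, n = 3) in WT and 532 ± 42.7 in Piezo1_KO. Slc25a4 (ANT1) followed at 143 ± 6.53 and 153 ± 7.74 CPM per kb, and Slc25a3, the phosphate carrier, at 66.1 ± 3.56 and 63.3 ± 3.34. These 3 genes made up 73.5% of the summed level per kb of all 37 members. Slc25a39 and Slc25a24 lay lower, at 45.0 ± 5.39 and 25.7 ± 1.44 CPM per kb in WT, and at 36.6 ± 4.05 and 33.4 ± 0.503 in Piezo1_KO, where the levels of these genes did not differ from each other beyond their spread. Slc25a17, Slc25a46 and Slc25a51 were at 18.1 ± 0.778, 15.9 ± 4.16 and 14.3 ± 0.799 CPM per kb in WT, with Slc25a46 overlapping both neighbours.

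**Figure D2:**
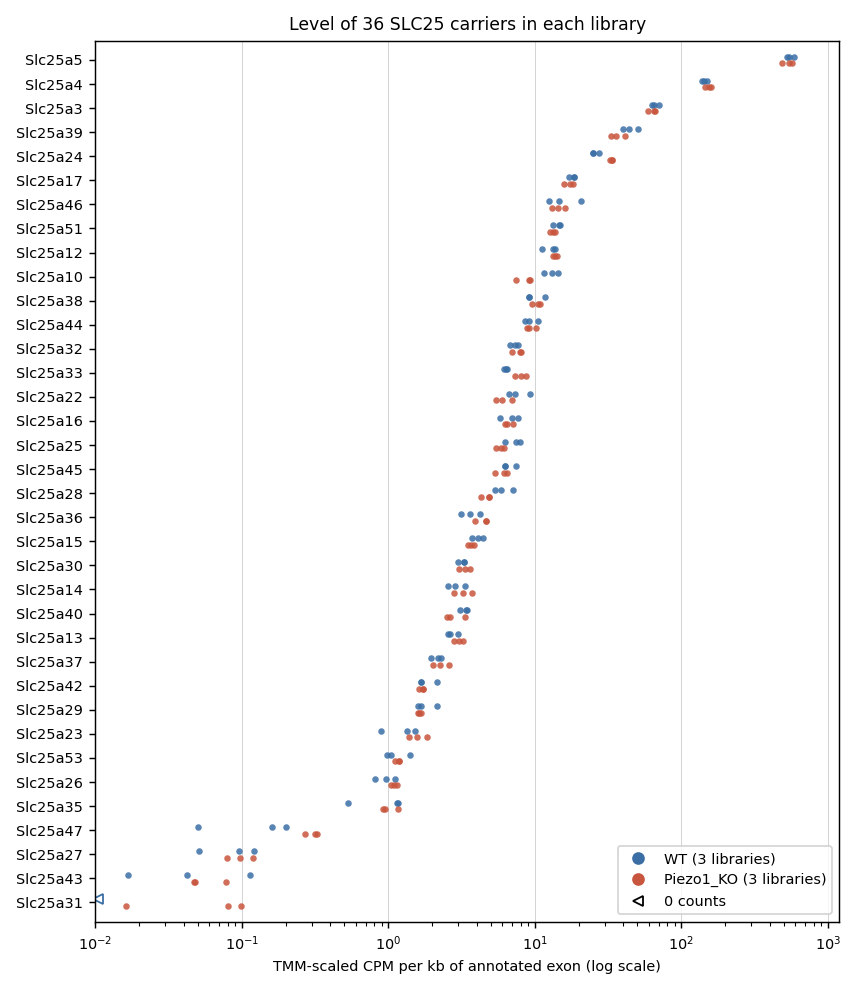
TMM-scaled CPM per kb of annotated exon (x axis, log scale) of 36 carriers in each of the 3 WT and 3 Piezo1_KO libraries (points), ordered by the mean, with an open triangle where all 3 WT libraries had 0 counts. Slc25a5, Slc25a4 and Slc25a3 stand above the rest, and Slc25a47, Slc25a27, Slc25a43 and Slc25a31 lie at the bottom.

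Summed over the 37 members, the level was 2669, 2917 and 2745 CPM in WT and 2634, 2810 and 2740 CPM in Piezo1_KO. The groups overlapped, and the log2 difference of −0.03 had an exact two-sided permutation p of 0.60, where 0.10 is the smallest p that 3 libraries against 3 allow. Without WT replicate 2 the log2 difference was 0.01. Slc25a5 held between 30.3% and 33.3% of the members' counts in every library.

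Of the 6 adenine nucleotide and phosphate carriers tested, 0 passed, and the abundant members had intervals within 1.5-fold. Slc25a5 was at 867, 966 and 899 CPM in WT and 799, 936 and 895 CPM in Piezo1_KO. Its log2 fold change was −0.06 ± 0.09 (SE), and the 95% interval ran from −0.27 to 0.16. Slc25a4 was at 323, 335 and 354 CPM in WT and 339, 373 and 365 CPM in Piezo1_KO, a log2 fold change of 0.09 ± 0.09 with an interval of −0.11 to 0.29. In both genes the groups overlapped. Slc25a3 had −0.06 ± 0.09. Slc25a31, the adenine nucleotide carrier of male germ cells, had 0 counts in each WT library and 5, 1 and 4 counts in Piezo1_KO, too few to be tested.

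The ATP-Mg/phosphate carriers take adenine nucleotides into the matrix net of exchange, and calcium outside the inner membrane activates them. Slc25a24 was at 93.9, 85.5 and 85.3 CPM in WT and 116, 115 and 113 CPM in Piezo1_KO. Every Piezo1_KO library lay above every WT library, 1.30-fold on average, with a log2 fold change of 0.38 ± 0.09 (SE) and a 95% interval of 0.18 to 0.57. It did not pass (edgeR, adjusted p = 0.0898). It passed in DESeq2 (adjusted p = 0.0188), the lowest of 13 alternatives whose highest was 0.417. Slc25a25, of the same subfamily, lay the other way, at 58.6, 61.9 and 49.4 CPM in WT and 48.2, 46.3 and 42.8 CPM in Piezo1_KO. Its groups did not overlap either, and its log2 fold change of −0.31 ± 0.11 did not pass (adjusted p = 0.281, edgeR). Slc25a23 had 0.34 ± 0.24, with overlap, which was 0.15 without WT replicate 3 and 0.22 without Piezo1_KO replicate 1.

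The balance of carrier pairs with like substrates was compared within libraries as the log2 ratio of their CPM (0.5 added to each), for 5 pairs. The ratio of Slc25a24 to Slc25a25 was 0.68, 0.46 and 0.78 in WT and 1.26, 1.30 and 1.38 in Piezo1_KO. The groups did not overlap and differed by 0.68 ± 0.10 (SE). That separation follows from the values of Slc25a24 and Slc25a25 given above, which lay apart in opposite directions. It is not a separate result. This pair's exact two-sided permutation p was 0.10, the smallest the design allows, or 0.167 after Benjamini-Hochberg adjustment over the 5 pairs. The ratio of Slc25a28 to Slc25a37 differed by −0.46 ± 0.15 and that of Slc25a5 to Slc25a4 by −0.15 ± 0.06, both without overlap and with the same p-values. These ratios too follow from their members, with log2 fold changes of −0.39 and 0.09 for Slc25a28 and Slc25a37 and −0.06 and 0.09 for Slc25a5 and Slc25a4. How often ratios of other gene pairs lack overlap was not examined. Of single tested genes, 20.5% did. For Slc25a13 to Slc25a12 (0.03 ± 0.18) and Slc25a39 to Slc25a40 (−0.07 ± 0.24) the groups overlapped (exact permutation p = 0.90, adjusted 0.90).

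**Figure D3:**
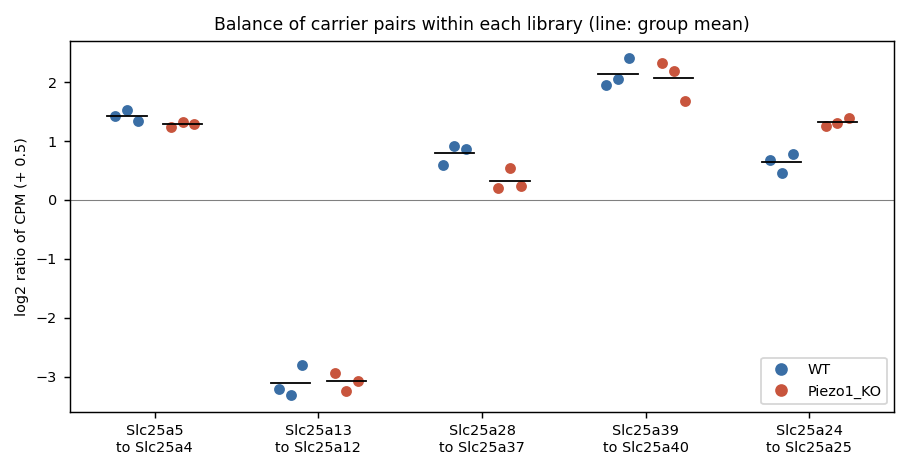
Log2 ratio of CPM, with 0.5 added, for 5 pairs of carriers (y axis) in each WT and Piezo1_KO library (points), with the group mean as a line. The 3 Piezo1_KO libraries lie above the 3 WT libraries for Slc25a24 to Slc25a25, between 1.26 and 1.38 against 0.46 and 0.78. This follows from the opposite directions of these genes.

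Slc25a10, the dicarboxylate carrier that exchanges malate and succinate for phosphate, had the smallest p of all members. Its level was 40.2, 49.4 and 45.2 CPM in WT and 31.8, 31.4 and 25.8 CPM in Piezo1_KO. All Piezo1_KO libraries were below all WT libraries, 1.52-fold lower on average, a log2 fold change of −0.60 ± 0.13 (SE) with a 95% interval of −0.89 to −0.31. It did not pass (adjusted p = 0.0703, edgeR), DESeq2 passed it (adjusted p = 0.00424), and 0.262 was the highest value of 13 alternatives. The gene lies at chr11:120491840-120499187 (mm10, plus strand), Slc25a24 at chr3:109123149-109168457 (plus), Slc25a25 at chr2:32414487-32451445 (minus), Slc25a28 at chr19:43663801-43674881 (minus) and Slc25a5 at chrX:36795651-36798807 (plus). Of the other carriers that handle organic acids, Slc25a1 (citrate), Slc25a11 (oxoglutarate-malate) and Slc25a20 (carnitine and acylcarnitine), which the rule leaves out, had log2 fold changes of 0.16 ± 0.12, −0.04 ± 0.09 and −0.22 ± 0.09, none past the threshold.

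**Figure D4:**
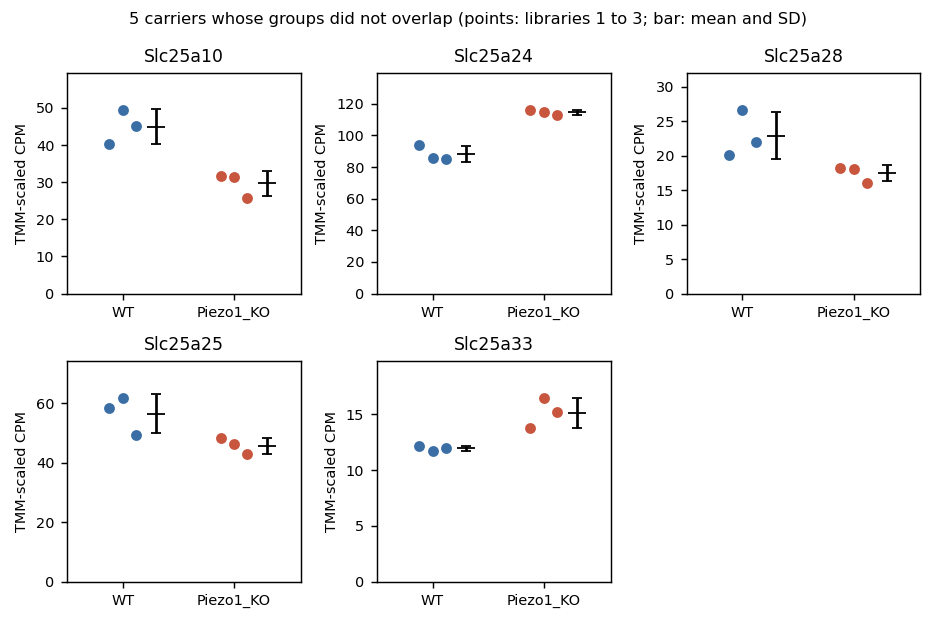
TMM-scaled CPM (y axis, from 0) of 5 carriers in each library, with the mean and SD beside the points. These are members with a mean of at least 1 CPM whose groups did not overlap; Slc25a24 and Slc25a33 are higher and Slc25a10, Slc25a28 and Slc25a25 lower in Piezo1_KO, and none passed the threshold of the edgeR test.

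Groups that did not overlap were found for 7 of 34 tested members, 4 higher and 3 lower in Piezo1_KO, or 20.6%. The share over all tested genes was 20.5%, 10.1% higher and 10.5% lower, so the members did not stand out by this count. Besides those named above, they included Slc25a28, Slc25a33 and Slc25a47.

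The amino acid carriers had 7 members in the table, all tested, with log2 fold changes between −0.35 and 0.15. Slc25a12, the calcium-activated aspartate-glutamate carrier aralar, was at 97.4, 100.3 and 82.4 CPM in WT and 97.0, 105 and 100.3 CPM in Piezo1_KO. Its paralog Slc25a13 (citrin) was at 10.1, 9.68 and 11.4 CPM in WT and 12.3, 10.7 and 11.5 CPM in Piezo1_KO. Both pairs of groups overlapped, with log2 fold changes of 0.11 ± 0.10 and 0.15 ± 0.15 (SE). Slc25a12 was at 0.026 without WT replicate 3, and Slc25a13 at 0.083 without WT replicate 2 and 0.086 without Piezo1_KO replicate 1. The glutamate carrier gene Slc25a22 was at 43.9, 55.9 and 40.0 CPM in WT and 41.7, 35.8 and 32.8 CPM in Piezo1_KO, and its −0.35 ± 0.15 did not pass (adjusted p = 0.378, edgeR). Its highest library was WT replicate 2, and the value was −0.21 without that library. Slc25a38, the glycine carrier of heme synthesis, had 0.03 ± 0.13, Slc25a15, the ornithine carrier of the urea cycle, −0.15 ± 0.12, Slc25a29, a basic amino acid carrier, −0.15 ± 0.22, and Slc25a44, a branched-chain amino acid carrier, 0.01 ± 0.12. Slc25a29 was at −0.023 without WT replicate 2 and −0.23 without WT replicate 1, and Slc25a15 at −0.085 without WT replicate 1 and −0.23 without WT replicate 2. The 4 enzymes of the malate-aspartate shuttle, Got1, Got2, Mdh1 and Mdh2, also gave 0 calls, and Mdh1 had the smallest p (−0.14 ± 0.10, adjusted p = 0.595, edgeR).

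Of the 9 cofactor and nucleotide carriers, 0 passed and 5 were positive. Slc25a33, a pyrimidine nucleotide carrier, was at 12.1, 11.7 and 11.99 CPM in WT and 13.8, 16.5 and 15.2 CPM in Piezo1_KO. The groups did not overlap, and the log2 fold change was 0.34 ± 0.13 (SE, adjusted p = 0.311, edgeR). Slc25a36, the other pyrimidine nucleotide carrier, had 0.25 ± 0.14 with overlap between the groups, or 0.15 without WT replicate 3. The NAD carrier gene Slc25a51 had −0.11 ± 0.09, Slc25a32 (folate and FAD) 0.08 ± 0.10, Slc25a26 (S-adenosylmethionine) 0.18 ± 0.21, Slc25a42 and Slc25a16 (both linked to coenzyme A) −0.12 ± 0.16 and −0.06 ± 0.13, and the peroxisomal Slc25a17 −0.07 ± 0.10. Slc25a26 was at 0.075 without WT replicate 1 and 0.29 without WT replicate 3.

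Of the 4 iron and glutathione carriers, 0 passed and 3 had negative log2 fold changes. Slc25a28 (mitoferrin-2), the iron carrier used outside the red cell lineage, was at 20.02, 26.6 and 22.04 CPM in WT and 18.3, 18.1 and 16.1 CPM in Piezo1_KO. The groups did not overlap, and the log2 fold change was −0.39 ± 0.14 (SE, adjusted p = 0.274, edgeR), or −0.28 without WT replicate 2. Slc25a37 (mitoferrin-1), the iron carrier of red cell precursors, was at 13.2, 13.9 and 11.8 CPM in WT and 15.7, 12.2 and 13.6 CPM in Piezo1_KO, a log2 fold change of 0.09 ± 0.15 with overlap. Of the erythroid markers listed, 5 were in the table and 3 tested, of which Hba-a1 and Hba-a2 were called higher in Piezo1_KO, and Hba-a1 was at 3.52 to 4.87 CPM in WT and 23.6 to 28.2 CPM in Piezo1_KO. Hba-a2 was at 1.8e-16 to 7.7e-09 CPM in WT, fractions of a read, and at 2.51 to 3.11 CPM in Piezo1_KO. How reads were divided between Hba-a1 and Hba-a2 is uncertain, so their calls may not be independent. The part of erythroid RNA in the Slc25a37 value was not tested, and Klf1, the erythroid transcription factor, was at 0 to 0.15 CPM in WT and 0.035 to 0.13 CPM in Piezo1_KO. Slc25a39, needed for mitochondrial glutathione import, was at 110.3, 122 and 139.8 CPM in WT and 113, 98.0 and 91.5 CPM in Piezo1_KO, and its −0.30 ± 0.12 did not pass (edgeR, adjusted p = 0.352). Its paralog Slc25a40 was at 28.3, 29.0 and 25.8 CPM in WT and 22.2, 21.1 and 28.2 CPM in Piezo1_KO, with −0.22 ± 0.14, or −0.14 without Piezo1_KO replicate 2 and −0.36 without Piezo1_KO replicate 3. In both paralogs 1 Piezo1_KO library lay inside the WT range, replicate 1 for Slc25a39 and replicate 3 for Slc25a40. Of 11 heme and iron-sulfur enzymes tested, 0 passed, 2 were positive and the median log2 fold change was −0.16, and Cpox, coproporphyrinogen oxidase, had the smallest p (−0.56 ± 0.16, adjusted p = 0.168, edgeR).

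None of the other members, of the outer membrane, the uncoupling protein-like group or with no settled substrate, passed either. Slc25a46, an outer membrane member tied to mitochondrial fission and fusion, was at 79.2, 112 and 68.2 CPM in WT and 78.0, 71.4 and 87.1 CPM in Piezo1_KO, so that WT replicate 2 stood above the other libraries. Its log2 fold change of −0.13 ± 0.18 (SE) became 0.08 without that library. The uncoupling protein-like genes Slc25a30 and Slc25a14 had 0.05 ± 0.13 and 0.16 ± 0.19, the second between 0.056 and 0.26 with single libraries left out, and Slc25a27 had 4 to 16 counts per library and was not tested. Slc25a30 was at 13.7, 15.1 and 15.1 CPM in WT and 15.1, 16.4 and 13.9 CPM in Piezo1_KO, with overlap. Among members with no settled substrate, Slc25a45 was the most abundant in CPM, at 17.2, 20.6 and 17.2 in WT and 17.9, 16.997 and 14.8 in Piezo1_KO, with −0.15 ± 0.14, or −0.073 without WT replicate 2 and −0.076 without Piezo1_KO replicate 3. Slc25a53 and Slc25a35 had 0.02 ± 0.19 and 0.08 ± 0.33, and Slc25a43 had 1 to 4 counts per library and was not tested. Slc25a47, known from liver, was at 0.15, 0.48 and 0.60 CPM in WT and 0.80, 0.97 and 0.94 CPM in Piezo1_KO, and its log2 fold change of 1.15 ± 0.54 did not pass (adjusted p = 0.414, edgeR) and was 0.76 without WT replicate 1.

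The members are spread over 17 chromosomes. Slc25a4, Slc25a15 and Slc25a42 share chromosome 8 with Piezo1, at distances of 76.3, 100.1 and 52.3 Mb, and had log2 fold changes of 0.09, −0.15 and −0.12. Slc25a29 and Slc25a47 are neighbours on opposite strands of chromosome 12, with 163 bases between their GENCODE extents and 14.8 kb between their RefSeq start windows, at log2 fold changes of −0.15 and 1.15. Slc25a43 and Slc25a5 are 18.4 kb apart on the X chromosome, the first at 1 to 4 counts per library and the second at 799 to 966 CPM. Slc25a5 also has a named pseudogene, Slc25a5-ps, whose mean was 0.39 CPM in WT and 0.38 CPM in Piezo1_KO, so how reads were divided between close copies is uncertain but little was assigned to that copy. In 9 members, among them Slc25a25, Slc25a12, Slc25a37 and Slc25a46, the gene overlaps a gene of the opposite strand in the table, and since the labels do not state whether counting used strand, their reads may not be told apart. In 1 member, Slc25a37, the gene also overlaps a gene of the same strand in the table, Gm20236, which use of strand would not separate.

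Other parts of the mitochondrial transport system also gave 0 calls in the edgeR test. These were 21 transporters outside the family (median log2 fold change −0.06), 13 genes of the machinery that inserts carriers into the inner membrane (0.02) and 7 regulators of mitochondrial biogenesis (−0.22, all 7 negative). The members with the smallest p were Sfxn3, a sideroflexin, at −0.35 ± 0.15 (SE), Tomm40, the outer membrane import pore, at −0.24 ± 0.10, and Myc at −0.28 ± 0.11 (adjusted p = 0.361, 0.360 and 0.325, edgeR). The family members outside the rule included Mtch1, an outer membrane protein, at 211, 242 and 235 CPM in WT and 187, 188 and 193 CPM in Piezo1_KO (adjusted p = 0.222, edgeR). The uncoupling protein gene Ucp2 was at 765, 880.1 and 794 CPM in WT and 803, 732 and 655 CPM in Piezo1_KO (−0.16 ± 0.10). The respiratory chain lay on the positive side, with 65 of 80 nuclear oxidative phosphorylation genes and 13 of 13 mitochondrially encoded genes positive. Medians were 0.21 and 0.27, with 0 calls in both lists, and 7498 of all 14149 tested genes were positive. The smallest p in these lists was that of Ndufa4 (0.76 ± 0.20, adjusted p = 0.139, edgeR) and mt-Co3 (0.42 ± 0.14, adjusted p = 0.240, edgeR). The summed level of the nuclear genes overlapped between groups (12272 to 16603 CPM in WT, 13836 to 17219 in Piezo1_KO). That of the mitochondrially encoded genes did not (4102 to 4945 and 5091 to 6318 CPM). Neither sum was tested. Gene by gene, 7 of the 13 mitochondrially encoded and 3 of the 80 nuclear genes did not overlap, against 20.5% of all tested genes. Genes of a list come from the same libraries, so their signs are not independent. The difference between those lists and the carriers was not tested. The library order differed too, since the summed nuclear oxidative phosphorylation level was lowest in WT replicate 2 (12272 CPM, against 13809 to 17219 in the others) while the carriers' sum was highest there.

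**Figure D5:**
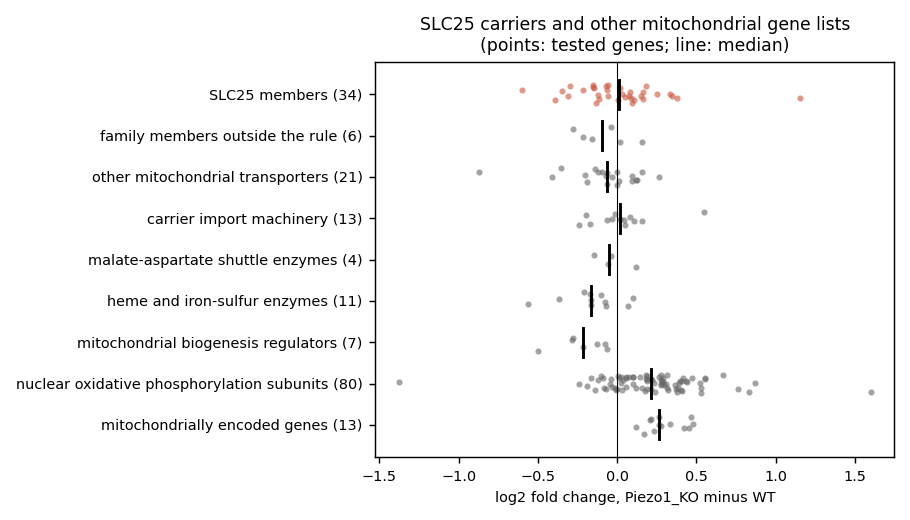
Log2 fold change (Piezo1_KO minus WT, x axis) of each tested gene (points) in the SLC25 members and in other mitochondrial gene lists, with the list median as a line and the number of tested genes in brackets. The members centre on 0.01, and the nuclear oxidative phosphorylation and mitochondrially encoded lists on 0.21 and 0.27.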

How the data were processed

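The authors deposited unscaled estimated counts for each gene, which need not be whole. Per the submitters' processing notes the genome build is mm10, and no aligner or counting tool is named in the labels. Rows were matched to samples by the sample description, and groups and replicate numbers come from the titles.

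Counts were rounded, filtered with filterByExpr (14149 of 18057 genes kept), given TMM factors and fitted by quasi-likelihood (glmQLFit, then glmQLFTest; edgeR 4.0.16, R 4.3.3), two-sided, without covariates, at an adjusted p of 0.05 over all genes. SE is the absolute log2 fold change over the square root of F. Alternatives were RLE factors, no filter, a stricter filter (1 CPM in all libraries of a group), robust quasi-likelihood, the replicate block, each library left out, DESeq2 1.42.0 and limma-voom (limma 3.58.1). Exon length is the union of exons in GENCODE M21. The fit was tested on simulated counts, with 7 false calls among 116. Each gene in the table has at least 10 counts in all, and rarer genes are not analysed here.

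Values in all libraries are given for members past the threshold, members with non-overlapping groups and a mean of at least 1 CPM, the most abundant member (in CPM) of each role and the members of each pair, and some others were chosen after their values were seen. From related lists the members past the threshold or the one with the smallest p were named. Members, lists and rules were chosen with earlier results of these data known, and the motifs and printed windows after the values were seen. Planned protein comparisons were not run. The values of 1 member, which is counted in all totals, are not reported here.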

Additional observations from a re-analysis of the deposited data

How the results depend on the processing

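No member was called in 12 of 13 alternative fits, and DESeq2 called 1 higher and 1 lower. All 13 medians of the members' log2 fold changes stayed within the spread between libraries, from −0.05 to 0.06. Of the 34 tested members, 22 kept their sign and their side of 0.05 in each alternative, 2 passed in DESeq2, and 10 changed sign in at least 1, all of them with a log2 fold change between −0.13 and 0.09.

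The count of all genes called (214) became 584 in DESeq2, 439 in limma-voom with quality weights and 52 with the replicate block, and ranged from 33 to 297 when single libraries were left out, 33, 35 and 53 without Piezo1_KO replicates 2, 1 and 3, 34 without WT replicate 1 and 297 without WT replicate 2. Same-numbered libraries did not deviate together (correlations of −0.02, −0.18 and −0.01 for numbers 1, 2 and 3). With only 3 libraries per group, each centred on its group mean, this check cannot exclude a pairing. With the replicate block 0 members were called.

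In limma-voom with quality weights, Slc25a35 had −0.050 and Slc25a5 0.00077. With single libraries left out, the log2 fold change ranged from −0.16 to 0.024 for Slc25a16, −0.013 to 0.11 for Slc25a30, −0.20 to 0.24 for Slc25a35, −0.016 to 0.18 for Slc25a37, −0.030 to 0.15 for Slc25a38, −0.18 to 0.0021 for Slc25a42, −0.062 to 0.075 for Slc25a44, −0.28 to 0.078 for Slc25a46 and −0.081 to 0.19 for Slc25a53. The summed level ranged from −0.053 to 0.011, the ratio of Slc25a13 to Slc25a12 from −0.072 to 0.18 and that of Slc25a39 to Slc25a40 from −0.20 to 0.12. Among abundant members the range was −0.096 to −0.020 for Slc25a3 and −0.11 to −0.0027 for Slc25a5. The cause of these changes was not tested. The ratio of Slc25a24 to Slc25a25 kept its direction in 9 of 9 alternatives, from 0.59 to 0.75, as follows from the opposite directions of these genes. So did the ratios of Slc25a28 to Slc25a37, from −0.57 to −0.40, and of Slc25a5 to Slc25a4, from −0.19 to −0.10.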
